A study of Mus musculus with 6 samples.

Results

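The genes described here mark the lipid-associated macrophage, a macrophage state of fatty and inflamed tissue. They are Trem2, Gpnmb, Cd9, Spp1, Lpl, Fabp5, Cd63, Itgax, Lgals3 and Atp6v0d2, 10 of the 27381 genes measured, and were taken as a list of known symbols, each matched to its row by Entrez ID. Whole liver of wild-type male C57BL/6J mice with non-alcoholic steatohepatitis (NASH) was profiled on Affymetrix arrays. All mice received a diet with 40% of energy from palm oil fat, 20% from fructose, and 2% cholesterol, starting at 10 weeks of age and lasting 32 weeks. At week 20, and so 12 weeks before the end, they were injected into the peritoneum with 1e+12 vector genomes of an adeno-associated virus (AAV), which carried either mouse Glrx with an HA/FLAG tag behind the hepatocyte promoter of Serpina7 (AAV-Hep-Glrx) or an empty cassette (AAV-Hep-control). RNA of 5 or 6 mice per group was combined into 3 pools per group, and each pool gave 1 array. The numbers 1, 2 and 3 name the pools of each group. The sources used here do not give the number of mice in each pool, and the spread between pools is not the spread between mice. No chow-fed liver was analysed here, and both groups carry the diet and a virus.

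When fat and dying hepatocytes accumulate in the liver, monocytes enter, and some of them become macrophages that take up lipid and cell debris around the fat-laden hepatocytes. These cells carry the receptor TREM2, which binds lipids and lipoproteins and signals through the adaptor DAP12, and they express genes for lipid uptake, lysosomal digestion and secreted matrix proteins. Single genes of this program are shared with other liver cells: cholangiocytes also make Spp1, dendritic cells also carry Itgax, and tetraspanins such as Cd9 and Cd63 are found on many cell types. In whole liver RNA, fewer cells of a type and less RNA per cell cannot be told apart.

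The deposited values of the arrays were similar, but their normalization makes the distributions nearly the same. RNA and array quality were not examined here. Medians of the log2 values ran from 3.893 to 3.949, and any pair of arrays had a Pearson's r of 0.987 to 0.991 across genes, where genes are not independent replicates. The liver identity of the samples was seen in Alb, the hepatocyte albumin gene, at 12.3 to 12.4 in all 6 pools. Glrx, the gene in the vector, was between 5.66 and 6.11 in the AAV-Hep-control pools and between 6.60 and 7.77 in the AAV-Hep-Glrx pools, with no overlap (log2 fold change 1.27; adjusted p = 0.847 by limma). Over all genes, 1 passed limma's test at an adjusted p under 0.1, namely Zbtb16, a transcription factor gene outside the macrophage program.

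Start-site sequences of 7 of the 10 genes were found in the RefSeq table of build GRCm38.p6, with 8 windows because Spp1 has a pair of them. Lpl, Fabp5 and Atp6v0d2 were not matched. Each window, 250 bases before to 50 bases after a start, was searched on both strands for 11 motifs. Those of the MiT/TFE factors, which drive lysosomal genes, were the E-box CACGTG, the CLEAR element that contains it, the M-box TCATGTG and the broader TCANGTG, which takes in the M-box matches. PU.1, the macrophage lineage factor, was searched as GAGGAAGT and as its core GAGGAA, which takes in the longer one, AP-1 as TGANTCA, and the nuclear receptors by the PPAR direct repeat DR1 and the LXR direct repeat DR4, both in their consensus letters. The general promoter elements TATAAA and GGGCGG were searched as well. TGANTCA was found in 3 of the 8 windows (Trem2, Itgax and Gpnmb) and in 7.81% of all 32851 windows in the table. The AP-1 consensus takes C or G at the open letter N, as in Itgax (TGAGTCA) and Gpnmb (TGACTCA). The Trem2 letters, TGAATCA, match the broader pattern only. The longer PU.1 motif was found in 1, upstream of Spp1, and in 3.2% of all windows. The E-box, the CLEAR element, the M-box and both nuclear receptor repeats had no match in these 8 windows, where 7.15%, 0.326%, 3.77%, 0.0396% and 0.0213% of all windows, in that order, had a match. The broader TCANGTG matched in Lgals3 (14.3% of all windows), GAGGAA in Cd63, Spp1 and Trem2 (28.3%), TATAAA in Spp1 (13.6%) and GGGCGG in Cd9 and Lgals3 (35.7%). These matches are letters in a window and not sites of binding. The 4 windows that hold a TGANTCA or the longer PU.1 match are printed, so the choice was made by these matches. Neither motif is in all 4. The printed windows are on the plus strand at chr17:48346151-48346400 (Trem2), chr7:128129300-128129549 (Itgax), chr6:49036268-49036532 (Gpnmb) and chr5:104434861-104435110 (Spp1). Each is shown up to the base before the start (in Gpnmb up to base 15), with the TGANTCA or PU.1 match in capitals.
Trem2: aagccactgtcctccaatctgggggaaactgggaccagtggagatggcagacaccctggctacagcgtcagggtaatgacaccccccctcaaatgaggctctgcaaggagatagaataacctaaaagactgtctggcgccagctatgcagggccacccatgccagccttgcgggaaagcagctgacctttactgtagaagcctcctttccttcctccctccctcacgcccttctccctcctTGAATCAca
Itgax: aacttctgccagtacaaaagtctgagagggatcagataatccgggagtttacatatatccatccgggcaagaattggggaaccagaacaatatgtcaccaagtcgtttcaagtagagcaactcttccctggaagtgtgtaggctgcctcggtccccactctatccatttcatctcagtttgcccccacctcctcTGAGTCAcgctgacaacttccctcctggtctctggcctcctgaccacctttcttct
Gpnmb: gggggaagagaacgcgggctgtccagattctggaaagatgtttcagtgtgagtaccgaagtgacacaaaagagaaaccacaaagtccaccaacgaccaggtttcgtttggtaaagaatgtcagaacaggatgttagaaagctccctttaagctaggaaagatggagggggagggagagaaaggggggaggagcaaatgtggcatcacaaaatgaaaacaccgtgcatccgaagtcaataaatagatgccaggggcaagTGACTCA
Spp1: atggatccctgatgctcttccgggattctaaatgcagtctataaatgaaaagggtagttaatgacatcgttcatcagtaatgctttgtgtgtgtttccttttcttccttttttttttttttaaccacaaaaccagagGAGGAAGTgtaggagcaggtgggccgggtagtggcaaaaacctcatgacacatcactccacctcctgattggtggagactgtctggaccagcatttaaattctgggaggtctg
Counted from the start, the TGANTCA matches lie at -9 to -3 in Trem2, at -56 to -50 in Itgax and at 9 to 15 in Gpnmb, just after the start. The PU.1 letters of Spp1 lie at -113 to -106, and its TATAAA, printed in lower case, at -211 to -206.

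To examine whether Glrx in hepatocytes was accompanied by a change in this macrophage program, each AAV-Hep-Glrx pool was compared with each AAV-Hep-control pool. None of the 10 genes passed the test (limma, adjusted p from 0.850 to 0.992), where 0.00365% of all genes did. The gene with the largest difference was Atp6v0d2, which was 1.45-fold lower in the mean, followed by Gpnmb at 1.21-fold lower and Fabp5 at 1.15-fold higher. The other 7 differed by 1.09-fold or less. Trem2, the gene that defines the state, differed by 1.04-fold. At an unadjusted p under 0.05, 1 of the 10 genes was lower (Atp6v0d2), where 3.01% of all genes were, and 0 were higher, where 2.76% of all genes were. An exact two-sided permutation test could not go below p = 0.1 with 3 pools per group, so the p-values are those of limma, fitted over all genes.

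**Figure D1:**
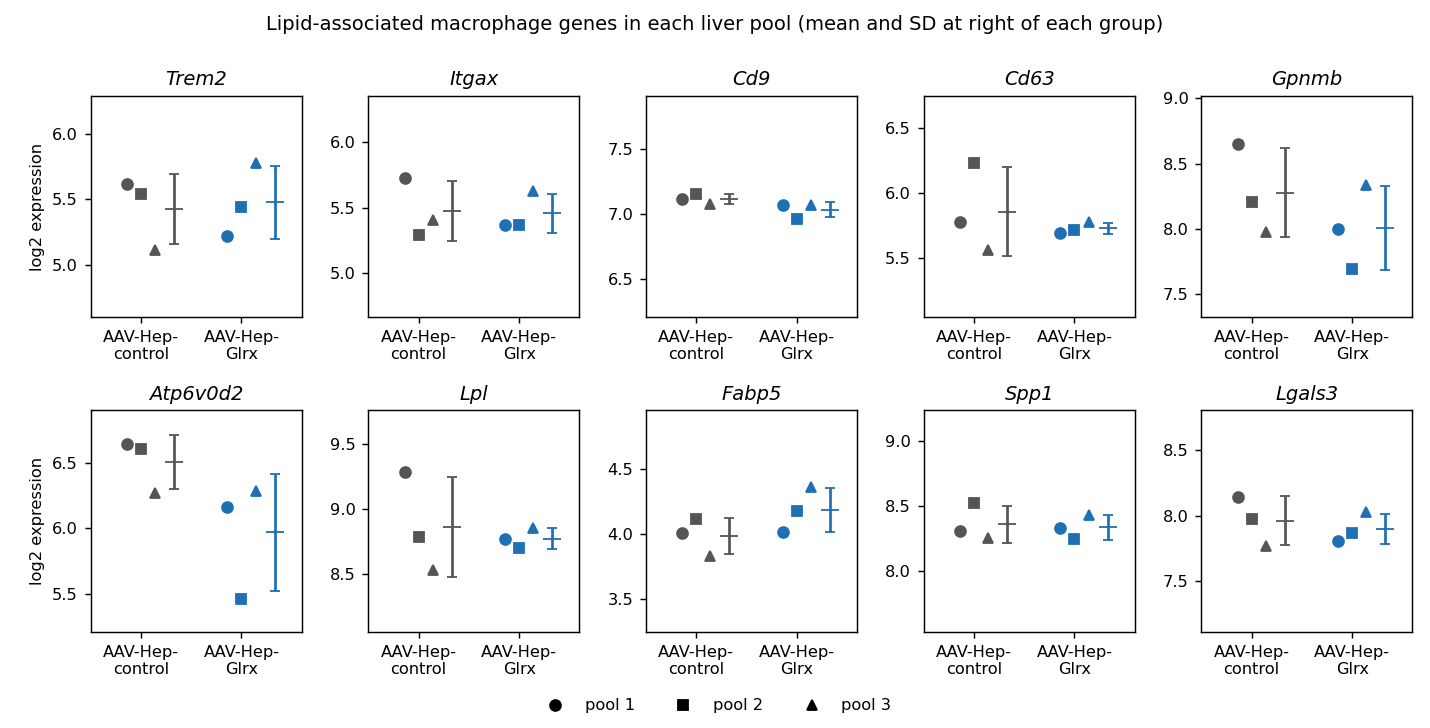
Log2 expression (vertical axes, each spanning 1.7 log2 units, with its own centre) of the 10 genes in the 3 AAV-Hep-control pools (grey) and the 3 AAV-Hep-Glrx pools (blue), with symbols for pool 1, 2 and 3 and the mean and SD of each group at its right. The groups overlap in every gene but Cd9, whose values lie between 6.96 and 7.15.

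Among the surface receptors, Trem2 had log2 values of 5.62, 5.54 and 5.12 in the AAV-Hep-control pools 1, 2 and 3 and of 5.22, 5.44 and 5.78 in the AAV-Hep-Glrx pools 1, 2 and 3. The lowest and the highest values were thus an AAV-Hep-control and an AAV-Hep-Glrx pool, and the groups overlapped over most of their range. The group means were 5.42 ± 0.27 (SD, n = 3 pools) and 5.48 ± 0.28 (SD, n = 3 pools), with a log2 fold change of 0.05 (standard error, SE, 0.18; adjusted p = 0.980 by limma). Its 95% interval, -0.36 to 0.47, leaves room for a 1.28-fold decrease and a 1.38-fold increase. Itgax encodes CD11c, the alpha chain that pairs with the beta 2 integrin chain. Its log2 values were 5.73, 5.29 and 5.40 in the AAV-Hep-control pools and 5.37, 5.37 and 5.63 in the AAV-Hep-Glrx pools. A single pool of each group stood above the other two, AAV-Hep-control 1 and AAV-Hep-Glrx 3. The log2 fold change of Itgax was -0.02 (SE 0.14; adjusted p = 0.992 by limma), with an interval of -0.33 to 0.30.

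The tetraspanins Cd9 and Cd63 organize membrane proteins, Cd9 at the cell surface and Cd63 in late endosomes and lysosomes. Cd9 was at 7.11, 7.15 and 7.08 in the AAV-Hep-control pools and at 7.07, 6.96 and 7.07 in the AAV-Hep-Glrx pools. It was the only gene of the 10 whose groups did not overlap, where 5.38% of all genes had every AAV-Hep-Glrx pool lower and 5.51% every one higher. The gap between the groups was 0.0085 on the log2 scale, and after another quantile normalization the groups overlapped. The log2 fold change of Cd9 was -0.08 (SE 0.08; adjusted p = 0.919 by limma), its interval of -0.27 to 0.11 was the narrowest of the 10 genes, and the difference was -0.046 without AAV-Hep-Glrx 2. Cd63 was at 5.78, 6.23 and 5.56 in the AAV-Hep-control pools and at 5.69, 5.72 and 5.78 in the AAV-Hep-Glrx pools. The AAV-Hep-Glrx values lay within the AAV-Hep-control range, whose upper end was AAV-Hep-control 2. Its log2 fold change was -0.13 (SE 0.16; adjusted p = 0.942 by limma) and was 0.06 without AAV-Hep-control 2.

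The lysosomal genes held the largest differences. Atp6v0d2 encodes the d2 subunit of the membrane sector of the vacuolar proton pump, which acidifies lysosomes, and is used by macrophages and osteoclasts in place of the common d1 subunit. Its log2 values were 6.65, 6.61 and 6.27 in the AAV-Hep-control pools and 6.16, 5.46 and 6.29 in the AAV-Hep-Glrx pools. AAV-Hep-Glrx 2 was far below the other 5 pools, and AAV-Hep-Glrx 3 was just above AAV-Hep-control 3, so that 8 of 9 pairs of pools had the AAV-Hep-Glrx pool lower. The means were 6.51 ± 0.21 (SD, n = 3 pools) and 5.97 ± 0.45 (SD, n = 3 pools), with a log2 fold change of -0.54 (SE 0.22; unadjusted p = 0.0395 and adjusted p = 0.850 by limma). Without AAV-Hep-Glrx 2 the log2 fold change was -0.28 (limma, unadjusted p = 0.0876). The unadjusted p was also above 0.05 without AAV-Hep-control 1 (0.112) or AAV-Hep-control 2 (0.1001). Gpnmb encodes a transmembrane glycoprotein of lysosomes and melanosomes and is a known target of the MiT/TFE factors. It was at 8.65, 8.21 and 7.98 in the AAV-Hep-control pools and at 7.99, 7.69 and 8.33 in the AAV-Hep-Glrx pools. AAV-Hep-control 1 was the highest pool and AAV-Hep-Glrx 2 the lowest, a range of 1.94-fold, and the other 4 pools were mixed between the groups. The log2 fold change of Gpnmb was -0.27 (SE 0.21; adjusted p = 0.899 by limma), -0.08 without AAV-Hep-control 1 and -0.11 without AAV-Hep-Glrx 2.

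**Figure D2:**
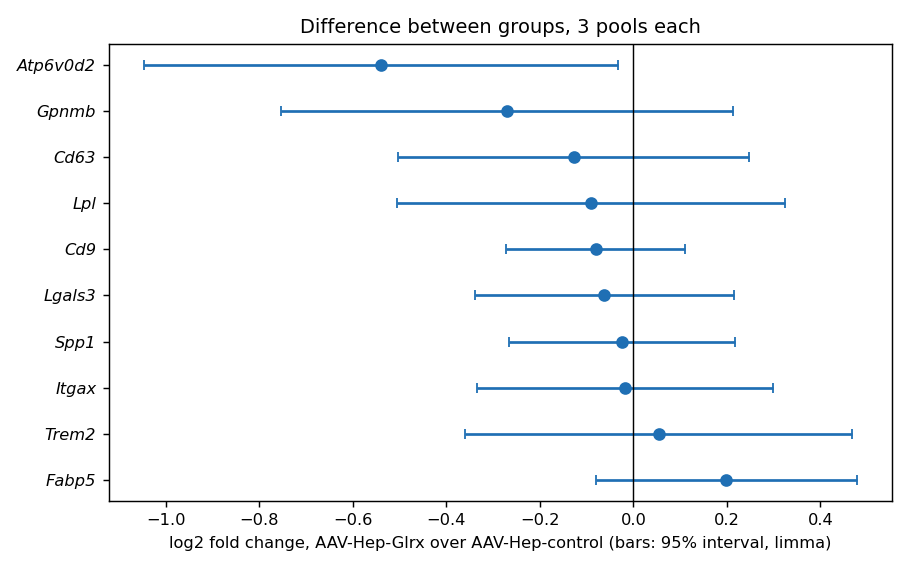
Log2 fold change of AAV-Hep-Glrx over AAV-Hep-control (horizontal axis) for each of the 10 genes, with its 95% interval from limma, from 3 pools per group. The intervals of 9 genes include 0, and that of Atp6v0d2 runs from -1.05 to -0.03 before any adjustment for the number of genes.

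The genes of lipid handling went in opposite directions in their means, and neither passed. Lpl encodes lipoprotein lipase, which releases fatty acids from the triglycerides of lipoproteins. Its log2 values were 9.28, 8.78 and 8.53 in the AAV-Hep-control pools and 8.77, 8.70 and 8.85 in the AAV-Hep-Glrx pools. The 3 AAV-Hep-Glrx pools were close together and inside the wider range of the AAV-Hep-control pools. The log2 fold change of Lpl was -0.09 (SE 0.18; adjusted p = 0.964 by limma), and 0.12 without AAV-Hep-control 1. Fabp5 encodes a cytosolic carrier of fatty acids. It was at 4.01, 4.11 and 3.83 in the AAV-Hep-control pools and at 4.01, 4.17 and 4.36 in the AAV-Hep-Glrx pools, higher in the AAV-Hep-Glrx pool in 8 of 9 pairs. Its log2 fold change was 0.20 (SE 0.12; adjusted p = 0.879 by limma), with an interval of -0.08 to 0.48, and was 0.11 without AAV-Hep-Glrx 3 and 0.12 without AAV-Hep-control 3.

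The genes of secreted proteins differed little between the groups. Spp1 encodes osteopontin, a matrix protein that binds integrins and CD44, and was at 8.31, 8.52 and 8.25 in the AAV-Hep-control pools and at 8.33, 8.25 and 8.43 in the AAV-Hep-Glrx pools. The ranges of both groups nearly coincided. The log2 fold change of Spp1 was -0.02 (SE 0.10; adjusted p = 0.988 by limma), and its interval of -0.27 to 0.22 leaves room for a 1.20-fold decrease and a 1.16-fold increase. Lgals3 encodes galectin-3, a lectin that binds galactosides on the cell surface and on damaged lysosomes. It was at 8.14, 7.97 and 7.77 in the AAV-Hep-control pools and at 7.80, 7.87 and 8.03 in the AAV-Hep-Glrx pools. These values also overlapped over most of their range, with a log2 fold change of -0.06 (SE 0.12; adjusted p = 0.964 by limma).

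As a list, 8 of the 10 genes had a lower mean in AAV-Hep-Glrx, where 50.5% of all genes did, and the median log2 fold change was -0.07, against -0.00122 over all genes. In 7 of the 10 the difference between the means was smaller than the pooled SD of the pools. The exceptions were Cd9, Atp6v0d2 and Fabp5. The share of the variation over the 6 pools that lay between the groups was 0.294% for Itgax, 1.44% for Trem2 and 1.46% for Spp1, and reached 47.2% for Atp6v0d2 and 49.8% for Cd9. Its median was 7.51% over the 10 genes and 13.6% over all genes. In all 10 genes, more of the variation lay between pools of the same group than between the groups.

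That variation had a common order. AAV-Hep-control 3 was the lowest AAV-Hep-control pool in 9 of the 10 genes, all but Itgax, and AAV-Hep-Glrx 3 was the highest AAV-Hep-Glrx pool in 9, all but Cd9. Over all genes these positions fell to AAV-Hep-control 3 in 31.9% and to AAV-Hep-Glrx 3 in 34.5%. AAV-Hep-control 1 was the highest of its group in 6 genes (Trem2, Gpnmb, Lpl, Itgax, Lgals3 and Atp6v0d2) and AAV-Hep-control 2 in the other 4 (Cd9, Spp1, Fabp5 and Cd63). The mean of the 10 genes, taken after each gene was centered on its own 6 pools, was 0.19, 0.11 and -0.16 in the AAV-Hep-control pools and -0.09, -0.17 and 0.12 in the AAV-Hep-Glrx pools, in the same order of numbers. The pools of both groups thus spread over the same range.

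**Figure D3:**
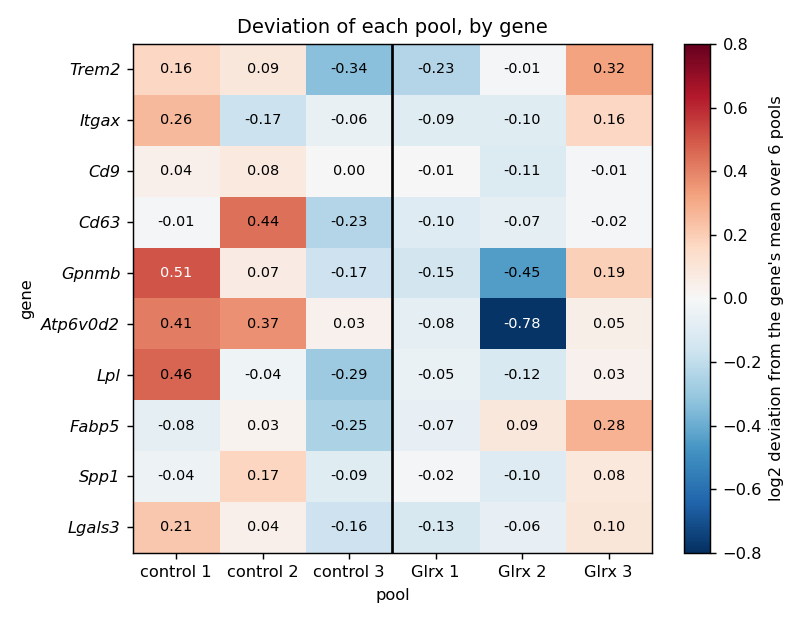
Log2 deviation of each pool (columns) from the gene's own mean over the 6 pools (rows are genes), from blue (lower) to red (higher), with the line separating the 3 AAV-Hep-control pools from the 3 AAV-Hep-Glrx pools. AAV-Hep-control 3 and AAV-Hep-Glrx 3 differ from the other pools of their groups in most rows, and the strongest single deviation is that of Atp6v0d2 in AAV-Hep-Glrx 2, at -0.78.

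Among 13633 other named genes above the median level, the 5 whose profile over the 6 pools was most like that mean were Trbc1, a constant segment of the T cell receptor beta chain (Pearson's r = 0.993), Hmces, of the DNA damage response (0.987), Gab2, a docking adaptor of receptor signaling (0.978), the predicted gene Gm8104 (0.976) and Siva1, an apoptosis gene (0.973). These are descriptions over 6 arrays that share their normalization, and no p is given because they were picked from many. None of the 5 passed the test between the groups (limma, adjusted p from 0.916 to 0.964).

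Marker genes of other liver cells were set beside this order. The median deviation of 12 genes of macrophages in general (Adgre1, Csf1r, Cd68 and others) was 0.26 in AAV-Hep-control 1, which was also the highest pool for 13 Kupffer cell genes (0.21) and 12 monocyte genes (0.16). In AAV-Hep-Glrx 3, where 9 of the 10 lipid-associated macrophage genes were the highest of their group, the monocyte genes were at 0.16, the genes of macrophages in general at 0.02 and the Kupffer cell genes at 0.05. In AAV-Hep-control 3, the lowest for the 10 genes at a median of -0.16, the monocyte genes were at -0.04, the genes of macrophages in general at -0.07 and the Kupffer cell genes at -0.06. All 12 genes of macrophages in general had a lower mean in AAV-Hep-Glrx (median log2 fold change -0.12), with median deviations in the AAV-Hep-Glrx pools of -0.22, 0.02 and 0.02. Cd68, a lysosomal glycoprotein of macrophages, was at -0.22 (SE 0.12; adjusted p = 0.868 by limma). For 12 cholangiocyte genes, cells that also make Spp1, the median deviation was -0.02, 0.06 and 0.04 in the AAV-Hep-control pools and 0.14, -0.18 and 0.01 in the AAV-Hep-Glrx pools. Sox9 and Muc1, the leading cholangiocyte genes by p, had log2 fold changes of -0.25 and -0.17. For 10 dendritic cell genes, cells that also carry Itgax, it was 0.02, 0.00 and 0.07 in the AAV-Hep-control pools and -0.02, -0.12 and 0.06 in the AAV-Hep-Glrx pools. The other lists, by genes with a lower mean and median log2 fold change, were 9 of 13 for Kupffer cells (-0.08), 7 of 12 for monocytes (-0.01), 7 of 10 for dendritic cells (-0.07) and 8 of 12 for cholangiocytes (-0.04). All 7 B cell genes had a lower mean (-0.28), as did 6 of 8 T cell genes (-0.08), 6 of 12 neutrophil genes (0.02), 7 of 11 endothelial genes (-0.06), 6 of 12 genes of stellate cells and myofibroblasts (0.00) and 6 of 11 hepatocyte genes (-0.04). None of the genes in the 11 marker lists passed (limma, adjusted p under 0.1). At an unadjusted p under 0.05 (limma), 2 of 7 B cell genes (Cd79a and Fcmr) and 2 of 8 T cell genes (Cd3e and Cd8b1) were lower. Those lower also included 1 of 11 endothelial genes (Lyve1) and 1 of 11 hepatocyte genes (Tat). No marker gene was higher. Over all genes, 3.01% were lower and 2.76% higher at this threshold. The 2 T cell genes with a higher mean were Cd3d (0.20) and Lck (0.04). Fcmr (3.48 to 3.92) and Cd8b1 (2.99 to 3.56) had log2 values below 3.93, the median over all genes and arrays. The part of these cells in the values of the 10 genes was not tested.

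**Figure D4:**
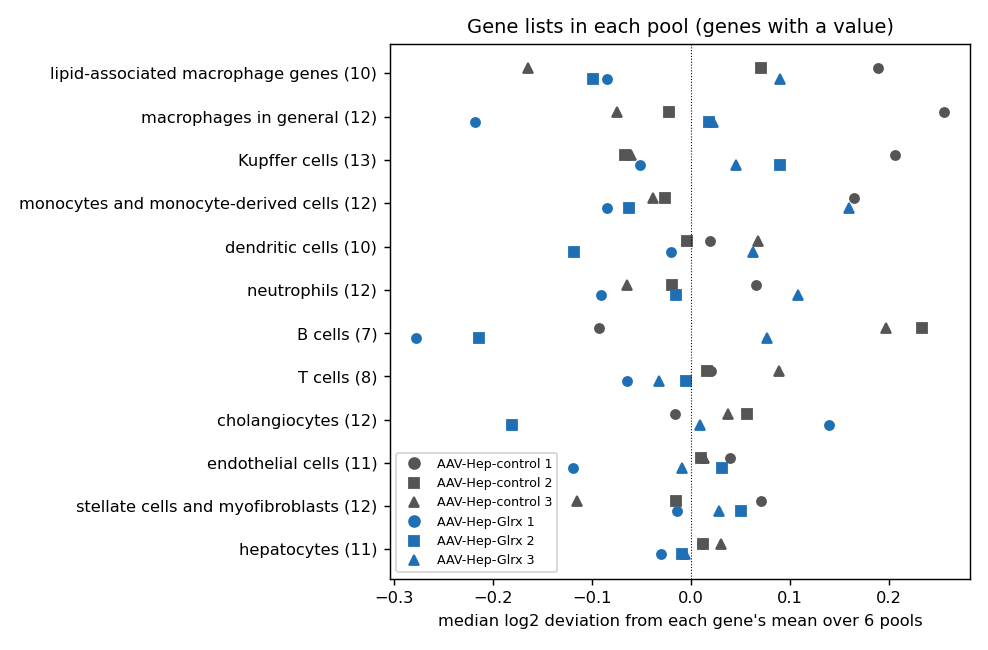
Median log2 deviation from each gene's mean over the 6 pools (horizontal axis) for the 10 lipid-associated macrophage genes and for marker lists of 11 cell types, with the number of genes in parentheses. Grey symbols are AAV-Hep-control pools and blue symbols AAV-Hep-Glrx pools. The 10 genes run from -0.16 to 0.19, and both ends are AAV-Hep-control pools.

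In the wider program and its partners, 12 lists of function with 125 measured genes were examined, and 0 passed the test (limma, adjusted p under 0.1). At an unadjusted p under 0.05, 2 of them were lower, where 3.01% of all genes were, and 1 was higher, where 2.76% were. Of 25 other genes of the lipid-associated macrophage program, 17 had a lower mean (median log2 fold change -0.07), and 0 reached an unadjusted p under 0.05. The leading 2 by p both had higher means, Nceh1, a hydrolase of cholesterol esters, at 0.24 (SE 0.12), and Fabp4, the fatty acid carrier of adipocytes and macrophages, at 0.24 (SE 0.14). Of the 9 genes that act below TREM2 or shed it, 7 had a lower mean (median -0.12), led by the kinase Syk at -0.21 (SE 0.10) and the phosphatase Inpp5d at -0.26 (SE 0.16). Every AAV-Hep-Glrx pool was below every AAV-Hep-control pool for Syk (5.27, 5.50 and 5.46 against 5.65, 5.65 and 5.55). Over all genes, 5.38% had this order. In the 12 function lists it was also found in 3 other receptors of the Trem family and 1 partner or relative of Lpl. The opposite order was found in 1 other gene of the program, 1 pump subunit, 1 tetraspanin and 1 sterol exporter. Over all genes, 5.51% had that opposite order.

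The other receptors of the Trem family had lower means in all 5 genes, with a median of -0.20. Those other than Treml4 and Treml1 had log2 values below 3.93, the median over all genes and arrays. Treml4, a receptor of macrophages and dendritic cells, was at 6.15, 5.83 and 5.94 in the AAV-Hep-control pools and at 5.45, 5.79 and 5.69 in the AAV-Hep-Glrx pools, with a log2 fold change of -0.33 (SE 0.13; unadjusted p = 0.0316 and adjusted p = 0.847 by limma). Treml1, a receptor of platelets, was at 4.72, 5.04 and 4.79 and at 4.60, 4.68 and 4.42, with a log2 fold change of -0.28 (SE 0.12; unadjusted p = 0.0442 and adjusted p = 0.858 by limma). Every AAV-Hep-Glrx pool was lower in 3 of the 5 genes, Treml4 and Treml1 among them, where 5.38% of all genes had this order. Treml4 and Treml1 did not pass over all genes. Trem2, their neighbor, showed no such order, with AAV-Hep-Glrx lower in 4 of 9 pairs of pools. The difference between Trem2 and these genes was not tested.

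Most other genes of the proton pump had a higher mean, unlike Atp6v0d2. Of 23 other subunits with a value, 18 had a higher mean and 5 a lower one, around a median of 0.04, with a range of -0.13 to 0.21 and 0 genes at an unadjusted p under 0.05. The leading genes were Atp6v1g3 at 0.21 (SE 0.14), with a low level of 2.63 to 3.13, and Atp6v0e at -0.13 (SE 0.09). The difference between Atp6v0d2 and the other subunits was not tested. Of the 4 MiT/TFE factor genes, Tfe3 was at 0.18 (SE 0.11) and Tfeb at -0.14 (SE 0.12). Among 6 lipid-sensing receptors and sterol exporters, Abca1, which exports cholesterol from macrophages and hepatocytes, was at 9.10, 9.05 and 9.14 in the AAV-Hep-control pools and at 9.30, 9.26 and 9.41 in the AAV-Hep-Glrx pools. These groups did not overlap, where 5.51% of all genes had every AAV-Hep-Glrx pool higher. The log2 fold change of Abca1 was 0.23 (SE 0.09; unadjusted p = 0.0302 and adjusted p = 0.847 by limma). Pparg, the fatty acid receptor, was at 0.20 (SE 0.14).

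Partners of the remaining genes gave no call. Of 11 partners and relatives of Lpl, 7 had a lower mean (median -0.09), with Angptl4, an inhibitor of the lipase, at -0.30 (SE 0.17) and Lipg, the endothelial lipase, at 0.35 (SE 0.20). Of 7 other fatty acid binding proteins, 4 had a lower mean (median -0.05), with Fabp4, also counted above, first by p and Fabp9 next, at -0.17 and a level of 2.09 to 2.47. Of 16 other tetraspanins, 9 had a lower mean (median -0.02), led by Tspan6 at -0.23 (level 2.55 to 3.09) and Tspan15 at -0.21. The 9 receptor chains of osteopontin had 5 lower means (median -0.04), led by Itga9 at -0.15 and Itgb3 at -0.12. Of 4 chains related to Itgax, 3 had a lower mean (median -0.05), with Itgal at -0.14 and the shared beta chain Itgb2 at -0.10. The 8 other galectin genes were split evenly (median 0.01), with Lgals9 at -0.16 and Lgals2 at 0.27 (level 2.09 to 2.77).

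With each pool left out in turn, 4 of the 10 genes kept the sign of their difference throughout, namely Atp6v0d2, Gpnmb, Cd9 and Fabp5. The other 6, Trem2, Itgax, Cd63, Lpl, Spp1 and Lgals3, changed sign in at least 1 of the 6 cases. Without AAV-Hep-control 3 every AAV-Hep-Glrx pool was lower in 3 genes (Cd9, Cd63 and Atp6v0d2), where 10.5% of all genes had this order, and without AAV-Hep-Glrx 3 in 2 (Cd9 and Atp6v0d2), where 11% had it. For Fabp5, every AAV-Hep-Glrx pool was higher once AAV-Hep-control 2 was left out (10.5% of all genes), and likewise once AAV-Hep-Glrx 1 was (10% of all genes).

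**Figure D5:**
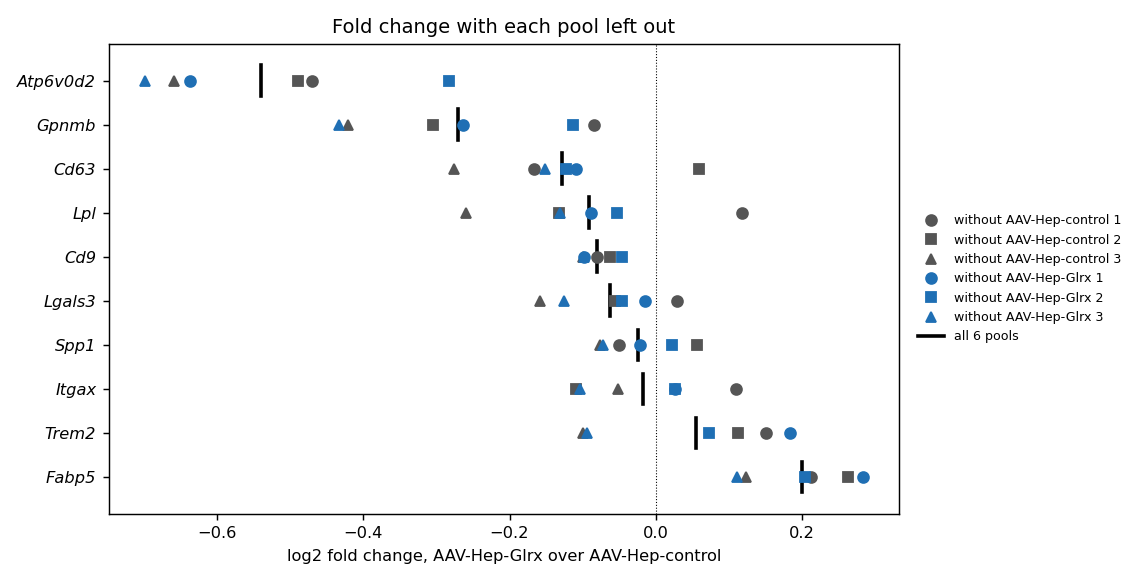
Log2 fold change of AAV-Hep-Glrx over AAV-Hep-control (horizontal axis) of each gene with all 6 pools (black bar) and with 1 pool left out (symbols, grey for an AAV-Hep-control pool and blue for an AAV-Hep-Glrx pool). Atp6v0d2 runs from -0.70 to -0.28, and 6 genes have symbols on both sides of 0.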

How the data were processed

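Liver RNA of 6 pools was hybridized to Affymetrix Mouse Gene 2.0 ST arrays. The authors deposited log2 values, 1 per Entrez gene and array, from the Robust Multiarray Average (affy 1.61.0, R 3.6.0 per the submitters' processing notes) with Brainarray definitions. Their genome build was not given in the sources used here. The method's quantile step gives the arrays nearly the same distribution, so a shift of most genes would not be seen. They entered the fit unfiltered. Rows were named by Entrez ID through the RefSeq table of GRCm38.p6 (27358 of 27381). Groups came from the labels and were compared with lmFit and eBayes in limma 3.58.1 (R 4.3.3), with Benjamini-Hochberg adjustment over all genes and a threshold of 0.1 on the adjusted p. The fit was tested on simulated data in which 200 genes were changed by 1 or 2 on the log2 scale. Every difference of the 10 genes was smaller, so that test cannot show whether such differences would be called. Since probes differ, a gene's level was compared between pools and not with that of other genes. The exceptions were a filter at the median and the mention of low levels. The 10 genes, the 23 other lists (248 symbols, 244 with a value), the motifs and the tests were chosen with earlier results of these data known. Named from the function lists were the 2 genes with the smallest p and any at an unadjusted p under 0.05. Batches could not be tested, since the sources used here give no array dates. Nothing says that pools of a group came from separate litters or cages, and p-values measure only the spread between them. The number of arrays limits the precision. 1 gene of the marker lists is not reported here by name.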

Additional observations from a re-analysis of the deposited data

How the results depend on the processing

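No gene of the 10 passed in any of 15 alternatives (limma, smallest adjusted p = 0.699), and their median log2 fold change stayed between -0.13 and -0.01. Over all genes, the count past the threshold was 0 after another quantile normalization, with the replicate block and at an adjusted p under 0.05, and 0 to 2 with an array left out. The count of the 10 genes lower at an unadjusted p under 0.05 was 0 with the replicate block (Atp6v0d2 at 0.0503) and 0 to 1 with an array left out. The count of genes with every AAV-Hep-Glrx pool lower was 0 after another quantile normalization and 1 to 3 with an array left out, and with every one higher 0 to 1, where 10% to 11% and 10% to 10.9% of all genes, respectively, had that order. With an array left out, the log2 fold change ran from -0.10 to 0.18 for Trem2, -0.077 to 0.056 for Spp1, -0.26 to 0.12 for Lpl, -0.28 to 0.059 for Cd63, -0.11 to 0.11 for Itgax and -0.16 to 0.029 for Lgals3, and kept its sign in Gpnmb (-0.43 to -0.08), Cd9 (-0.099 to -0.046), Fabp5 (0.11 to 0.28) and Atp6v0d2 (-0.70 to -0.28). No sign changed under the 7 alternatives that kept all arrays. The cause of these changes was not tested. Pools of the same number did not deviate together (r = -0.0361, -0.171 and 0.0205 for numbers 1, 2 and 3 over all genes), AAV-Hep-control 1 went most with AAV-Hep-Glrx 2 (0.178), and the block therefore rests on a shared number only.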
